A study of Rattus norvegicus with 15 samples.

Results

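The probes described here measure messenger RNA of 10 cytochrome P450 genes of the Cyp2a, Cyp2d, Cyp2e and Cyp2j subfamilies: Cyp2a1, Cyp2a2, Cyp2d1, Cyp2d2, Cyp2d3, Cyp2d4, Cyp2d5, Cyp2e1, Cyp2j3 and Cyp2j4. Probes were taken by name alone: every non-control probe of the array files whose gene name, in its current or an older form, is one of these 10. This gave 11 of 41012 probes, which cover 9 of the 10 genes. Cyp2d4 and Cyp2j3 have 2 probes each, and Cyp2d1 has no probe of its own. The files use other names for several of these genes: Cyp2d26 for Cyp2d2, Cyp2d13 for Cyp2d3, Cyp2d22 for Cyp2d4, Cyp2d10 for Cyp2d5 and Cyp2j9 for Cyp2j3.

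Liver RNA came from 15 female Crl:WI Wistar rats of 2 to 3 months, and each rat had its own single-colour array. In the fipronil group, 8 rats were dosed orally for 14 days with this insecticide of the phenylpyrazole class, at 3 mg/kg daily. In the vehicle group, 7 rats received the carrier alone, methylcellulose and Tween 80 in water. The comparison asks which of these P450 messages differed between the livers of fipronil rats and vehicle rats. The arrays lay on 4 slides with 2 fipronil rats each. Slides 1, 2 and 4 also held 2 vehicle rats each, and slide 3 held 1, vehicle rat 5. A difference within a slide therefore rests on few rats, and on slide 3 on that single vehicle rat.

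Microsomal P450s of family 2 are haem enzymes of the hepatocyte endoplasmic reticulum that oxidise drugs, steroids and fatty acids with electrons from NADPH-P450 reductase and cytochrome b5. In rat liver, Cyp2a1 and Cyp2a2 are testosterone hydroxylases with opposite sex bias, the Cyp2d enzymes oxidise basic drugs such as debrisoquine, Cyp2e1 oxidises ethanol and other small solvents, and Cyp2j enzymes form epoxides of arachidonic acid. The Cyp2b and Cyp3a genes are the classical targets of the drug-sensing receptors CAR and PXR, whereas Cyp2e1 is known for control through the stability of its protein.

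Signal below means log2 processed spot intensity after subtraction of the array's own 75th percentile, so that 0 is the brightness of that percentile and a step of 1 is a doubling. A difference is the mean signal of fipronil rats minus that of vehicle rats, tested with limma across all 23259 probes above background on at least 7 arrays, with Benjamini-Hochberg adjustment over all of them and a call at an adjusted p under 0.05. Signal reflects a probe's own labelling and hybridisation as well as its message, so the level of one probe is not read against that of another as an amount of message.

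Most arrays of fipronil rats were brighter than most of the vehicle group. Their upper quartile of intensity (75th percentile) lay between 184.9 and 269.5 with fipronil and between 115.4 and 214.4 with vehicle. Between 139 and 195 probes were saturated on an array of a fipronil rat and between 91 and 172 on an array of a vehicle rat. Probes well above background made up 55.3 to 59.5% of an array with fipronil and 50.7 to 57.7% with vehicle. An example of a strong response elsewhere on the arrays is Cyp3a23-3a1, the rat Cyp3a form best known for induction by drugs. Its signal was 7.99 ± 0.17 with fipronil and 3.92 ± 0.70 with vehicle (SD, n = 8 and 7), a 16.9-fold difference (limma adjusted p = 3.6e-08). It had the largest difference of 3 reference genes chosen with earlier results known, beside Abcg5 (12.4-fold) and Ugt1a1 (4.75-fold).

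All 11 probes passed the filter on low signal, and 10 of them were well above background on all 15 arrays. Cyp2d2 was called higher with fipronil, but narrowly (limma adjusted p = 0.0499), and the call was lost in 20 of 33 alternative settings. No other of the 11 probes was called in either direction. That is 1 call higher among 11 probes, where 0.533% of all probes tested were called higher, and 0 calls lower, where 0.288% were called lower. Differences were positive for 8 probes and negative for 3, against 45.7% positive over all probes tested. The negative count includes Cyp2e1 (-0.04), most of whose spots were saturated in 8 of 8 rats given fipronil and 1 of 7 given vehicle. For Cyp2e1, neither the sign nor the lack of a call is a measured result. The median difference of the 11 probes was 0.32 on the log2 scale, with a range of -0.18 to 0.54, and the median over all probes tested was -0.02. That 0.32 was the value of the Cyp2a2 probe, which was read close to background. Over the 10 probes above background on all 15 arrays the median was 0.36. With saturated spots left out, which dropped Cyp2e1, it was 0.39. At an unadjusted p under 0.05, 3 probes differed (Cyp2a1, Cyp2d2 and Cyp2d3), all higher with fipronil. Of all probes tested, 17.2% differed at that level in either direction and 6.52% were higher. None of the 11 was lower at that level, and for none of them were the groups fully apart, as they were for 0.598% of all probes tested.

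The Cyp2a1 and Cyp2a2 probes lie at chr1:82015056-82015115 and chr1:82060952-82061011 of build rn4, both on the plus strand. No annotation of that build was used, so the exon under a probe is not given. Cyp2a1, the testosterone hydroxylase that predominates in female rat liver, had a signal with a lowest, median and highest value of 5.28, 5.80 and 6.20 in fipronil rats, against 5.02, 5.18 and 5.57 in vehicle rats. All 8 fipronil rats lay above the vehicle mean and 5 lay above every vehicle rat, but the groups overlapped. The means were 5.78 ± 0.32 with fipronil and 5.25 ± 0.20 with vehicle (SD, n = 8 and 7). The difference was 0.54 on the log2 scale (SE 0.14, 95% interval 0.25 to 0.82), or 1.45-fold, and it missed the threshold (limma adjusted p = 0.0763). Within slides 1 to 4 it was 0.16, 0.92, 0.39 and 0.71, positive on each. It was called under 4 and not called under 29 of 33 alternative settings, with adjusted p-values up to 0.392 (without slide 4), and under 1 of 15 settings that left out a single rat. It passed with arrays centred on their median (0.60, adjusted p = 0.0443), with array weights (0.58, adjusted p = 0.0396), with no scaling (0.84, adjusted p = 0.0203) and without fipronil rat 2 (0.61, adjusted p = 0.0326).

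Cyp2a2, which is known as a male form, was read close to background by its probe. Its signal was -4.71, -3.28 and -2.73 (lowest, median and highest) in fipronil rats, against -5.89, -3.08 and -2.80 in vehicle rats. Signal well above background was marked for 7 of 8 rats given fipronil and 5 of 7 given vehicle, with processed intensities of 10 to 31 with fipronil and 3 to 21 with vehicle. The groups overlapped over most of their range, and the difference of 0.32 (SE 0.41, limma adjusted p = 0.737) was smaller than its error. The slides gave -0.26, 1.51, -0.31 and 0.04, of both signs. Without vehicle rat 3, the lowest, the sign turned (-0.05). The files also hold 2 probes outside the naming rule, given only as a genomic sequence described as a hepatic steroid hydroxylase of this subfamily, at chr1:82037779-82037838 and chr1:82037785-82038182. These were well above background on every array, with means of 5.23 with fipronil and 5.16 with vehicle for the first, and 6.16 with fipronil and 6.15 with vehicle for the second. Neither differed beyond the spread between rats (differences of 0.07 and 0.01, limma adjusted p = 0.927 and 0.989). Over the 15 arrays, deviations from the group means of these 2 probes correlated with each other at r = 1.00, and with those of the Cyp2a1 probe at -0.25 and -0.26.

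The 5 Cyp2d genes lie side by side on chromosome 7, in the order Cyp2d4, Cyp2d5, Cyp2d1, Cyp2d3 and Cyp2d2. Promoter windows are printed to show how that of Cyp2d2, the one gene called, compares with those of 3 of its neighbours and of Cyp2a1, whose deviations went with those of Cyp2d2. They lie outside the message and do not bear on what a probe can tell apart. RefSeq's promoter table held 9 of the 10 genes, all but Cyp2a2. The sequences are the 250 bases before the annotated start (RefSeq, build GRCr8), read 5′ to 3′ on the gene's strand. Capitals mark a direct repeat of receptor half-sites spaced by 1 base (DR1, searched as AGGNCA, any base, AGGNCA) and a TATA motif (TATAAA), each searched on both strands.
Cyp2d5 chr7:115784488-115784737 (minus strand): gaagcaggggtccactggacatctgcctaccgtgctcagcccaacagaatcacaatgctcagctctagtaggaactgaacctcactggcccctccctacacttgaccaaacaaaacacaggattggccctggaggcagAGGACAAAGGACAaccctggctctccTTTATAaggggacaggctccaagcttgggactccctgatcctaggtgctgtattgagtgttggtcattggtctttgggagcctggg
Cyp2d1 chr7:115793431-115793680 (minus strand): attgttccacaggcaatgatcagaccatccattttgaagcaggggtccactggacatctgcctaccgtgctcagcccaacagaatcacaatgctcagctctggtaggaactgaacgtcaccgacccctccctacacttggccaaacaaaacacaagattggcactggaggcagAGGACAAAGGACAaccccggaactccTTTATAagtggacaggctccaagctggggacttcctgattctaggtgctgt
Cyp2d3 chr7:115802143-115802392 (minus strand): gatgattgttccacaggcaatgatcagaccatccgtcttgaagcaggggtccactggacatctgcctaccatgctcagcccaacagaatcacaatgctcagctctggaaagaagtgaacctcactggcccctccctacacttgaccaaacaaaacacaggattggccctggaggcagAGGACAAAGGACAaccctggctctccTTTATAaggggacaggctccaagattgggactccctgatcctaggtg
Cyp2d2 chr7:115819282-115819531 (minus strand): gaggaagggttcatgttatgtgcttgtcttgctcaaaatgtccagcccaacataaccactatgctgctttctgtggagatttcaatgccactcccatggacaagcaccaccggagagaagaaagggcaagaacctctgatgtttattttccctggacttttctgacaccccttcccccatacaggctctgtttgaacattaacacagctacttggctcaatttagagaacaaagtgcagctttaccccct
Cyp2a1 chr1:91359028-91359277 (plus strand): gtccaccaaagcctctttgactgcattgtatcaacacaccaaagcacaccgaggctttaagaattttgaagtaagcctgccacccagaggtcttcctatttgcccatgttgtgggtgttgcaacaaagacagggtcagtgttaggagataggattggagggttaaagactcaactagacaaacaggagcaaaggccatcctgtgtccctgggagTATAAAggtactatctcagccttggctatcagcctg

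Aligned with free ends, the Cyp2d3 and Cyp2d5 windows were identical at 205 of 211 aligned bases (97.2%), those of Cyp2d1 and Cyp2d5 at 201 of 215 (93.5%) and those of Cyp2d1 and Cyp2d3 at 226 of 246 (91.9%). The Cyp2d2 window was identical to that of Cyp2d1 at 133 of 165 (80.6%) and of Cyp2d5 at 152 of 206 (73.8%). With Cyp2d3 it shared 124 of 169 (73.4%) and with Cyp2a1 132 of 174 (75.9%). Windows of different subfamilies reached such shares, as Cyp2a1 and Cyp2d5 did (139 of 182, 76.4%). The DR1 motif, of the type bound by HNF4A, was spelled AGGACAAAGGACA in 3 windows, at -112 to -100 from the start in Cyp2d5, -77 to -65 in Cyp2d1 and -73 to -61 in Cyp2d3. It was found in 0.368% of 33469 promoter windows, and these letters were not in the windows of Cyp2d2, Cyp2d4, Cyp2a1, Cyp2e1, Cyp2j3 or Cyp2j4. The TATA motif, present in 12.9% of windows, lay on the plus strand in Cyp2a1 and Cyp2e1 and was matched on the minus strand in Cyp2d1, Cyp2d3 and Cyp2d5. The HNF1 half-site GTTAAT, present in 6.45%, was matched on the minus strand of Cyp2d2 alone. A direct repeat spaced by 4 (DR4, searched as AGNTCA, 4 bases, AGNTCA, 0.0538% of windows) and an everted repeat spaced by 6 (ER6, searched as TGANCT, 6 bases, AGNTCA, 0.0329%), forms bound by CAR and PXR, were in none of the 9 windows. A match describes letters only and was not tested for binding.

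The Cyp2d2 probe lies at chr7:120798606-120798665 (rn4, minus strand). Cyp2d2, a rat debrisoquine hydroxylase, had a signal of 6.34, 6.86 and 7.11 (lowest, median and highest) in fipronil rats, against 6.18, 6.36 and 6.50 in vehicle rats. In the fipronil group 7 of 8 rats lay above every vehicle rat, and fipronil rat 2 lay within the vehicle range. The means were 6.83 ± 0.26 with fipronil and 6.34 ± 0.12 with vehicle (SD, n = 8 and 7). The difference was 0.48 on the log2 scale (SE 0.11, 95% interval 0.25 to 0.72), or 1.40-fold (1.19 to 1.64), and it passed the threshold narrowly (limma adjusted p = 0.0499). Processed intensities of 19551 to 28290 with fipronil and 8383 to 18706 with vehicle did not reach saturation on any array. Within slides 1 to 4 the difference was 0.07, 0.70, 0.40 and 0.79. The call was lost in 20 of 33 alternative settings, in which the difference stayed positive. Leaving out fipronil rat 2 (adjusted p = 0.0079) or 6 (adjusted p = 0.0496) kept it, and leaving out any other single rat lost it, with adjusted p-values up to 0.106.

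Cyp2d3, another basic-drug oxidase of the cluster (probe at chr7:120781308-120781367), had 3.72, 4.60 and 5.02 in fipronil rats, against 3.58, 4.04 and 4.58 in vehicle rats. Of the 8 fipronil rats, 5 lay above every vehicle rat and 6 lay above the vehicle mean. The means were 4.46 ± 0.43 with fipronil and 4.00 ± 0.32 with vehicle (SD, n = 8 and 7), a difference of 0.46 (SE 0.19) or 1.37-fold that missed the threshold (limma adjusted p = 0.226). The 4 slides gave 0.51, 0.50, 0.27 and 0.61, all positive.

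Cyp2d4, the form known from rat brain, was measured by 2 probes. The first, at chr7:120743218-120743277, had 3.50, 4.19 and 4.41 in fipronil rats, against 3.55, 3.77 and 4.18 in vehicle rats, with a difference of 0.26 (SE 0.14, limma adjusted p = 0.354). The second, at chr7:120741633-120741692, had -0.81, -0.45 and 0.02 in fipronil rats, against -0.43, -0.39 and 0.32 in vehicle rats, with a difference of -0.18 (SE 0.14, limma adjusted p = 0.545). Neither probe was called, and they differed in sign. On slides 1 to 4 the first gave 0.27, 0.33, 0.14 and 0.41, and the second -0.10, -0.20, -0.67 and 0.14. The difference between the 2 probes was not tested.

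The Cyp2d5 probe, at chr7:120761312-120761371, lists transcripts of both Cyp2d5 and Cyp2d1, so its signal may hold both messages. It had 6.74, 7.35 and 8.06 in fipronil rats, against 6.77, 7.10 and 8.21 in vehicle rats. The 2 groups spanned nearly the same range, and the highest rat was in the vehicle group. The difference was 0.20 (SE 0.23, 95% interval -0.29 to 0.70, limma adjusted p = 0.708), with 0.52, 0.02, -0.51 and 0.68 on the 4 slides. With array brightness as a covariate it was -0.04.

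Cyp2e1, the ethanol-oxidising P450 of pericentral hepatocytes, was read by a probe at chr1:200927736-200927795 that is spotted 10 times on each array. Its spots reached the scanner's ceiling on most arrays. Saturation was marked for 69 of 80 spots on arrays of fipronil rats and 11 of 70 spots on arrays of vehicle rats. An array of a fipronil rat had 6 to 10 saturated spots. Among arrays of vehicle rats, that of rat 4 had 10 and the others had 0 or 1. Most of the 10 spots were saturated in 8 of 8 rats given fipronil and 1 of 7 given vehicle, with spot means of 56567 to 65535 with fipronil and 36108 to 65535 with vehicle. Each fipronil value is therefore only a lower limit. The signal was 7.91, 8.27 and 8.40 in fipronil rats, against 8.05, 8.35 and 8.49 in vehicle rats, and the groups overlapped almost wholly. The difference of these limited values was -0.04 (SE 0.09, limma adjusted p = 0.875), with -0.16, 0.10, 0.00 and -0.14 on the 4 slides, and no fold is given.

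The scaled Cyp2e1 signal followed the brightness of the array. Its deviations from the group means had a Pearson correlation of -0.85 with the log2 75th percentile over the 15 arrays, where a capped spot divided by a larger percentile gives a lower value by construction. The sign of its difference depended on the scaling: it was 0.17 in the authors' deposited value table (limma adjusted p = 0.109), 0.03 with arrays centred on their median and 0.27 with no scaling, all above 0. Before scaling, the processed intensity was 62275 to 64883 with fipronil and 41417 to 63832 with vehicle. The arrays thus give no measured size for a Cyp2e1 difference in either direction.

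Cyp2j3, an arachidonic acid epoxygenase first known from rat heart, was measured by 2 probes. The probe at chr5:116744342-116744401 had 3.71, 4.27 and 5.55 in fipronil rats, against 2.47, 4.06 and 4.73 in vehicle rats. The probe at chr5:116755239-116755298 had 1.26, 1.92 and 2.44 in fipronil rats, against -0.12, 1.53 and 2.04 in vehicle rats. Vehicle rats 1 and 2, both on slide 1, were the lowest of all 15 rats at either probe, and the remaining rats overlapped. The differences were 0.53 (SE 0.34, limma adjusted p = 0.445) and 0.52 (SE 0.30, limma adjusted p = 0.396), neither past the threshold. Within slides 1 to 4 they were 1.25, 0.10, -0.01 and 0.36 for the first probe and 1.22, 0.15, -0.05 and 0.42 for the second. Without slide 1 they were 0.22 and 0.21. The 2 probes ranked the rats alike, with deviations correlated at r = 0.96 over the 15 arrays.

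Cyp2j4, a related epoxygenase of intestine and liver (probe at chr5:116702769-116702828), had 4.50, 4.67 and 5.03 in fipronil rats, against 4.45, 4.77 and 5.20 in vehicle rats. Both the lowest and the highest rat were in the vehicle group. The difference of -0.03 (SE 0.13, 95% interval -0.30 to 0.24, limma adjusted p = 0.939) was well within the spread between rats, and the slides gave 0.07, -0.07, -0.44 and 0.10. It turned positive in 6 of 33 alternative settings.

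Rats differed from each other within a group in ways that several probes shared. The following correlations are of deviations from the group means over the 15 arrays, which share slide and scaling, and they are descriptions without a test. Cyp2d3 and the first Cyp2d4 probe had r = 0.92, whereas the 2 Cyp2d4 probes had 0.31 with each other. Cyp2a1 on chromosome 1 and Cyp2d2 on chromosome 7 had r = 0.79. The second Cyp2d4 probe and Cyp2d5 had r = 0.78, and Cyp2j4 had 0.65 and 0.66 with the 2 Cyp2j3 probes, neighbours on chromosome 5. Cyp2a2 and Cyp2e1 had r = 0.79 (Spearman 0.53), and both also went down with array brightness, at -0.70 and -0.85.

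Among 11103 named probes above background on all arrays, those most like a gene were found by the same correlation for 7 genes with a suitable probe, which left out Cyp2a2 (near background) and Cyp2e1 (saturated). For Cyp2d4 and Cyp2j3 the first of their 2 probes was used, so the genes given for Cyp2d4 are those like a probe that had r = 0.31 with the other. Cyp2d2 was most like Mat1a, the liver methionine adenosyltransferase (0.91), Mettl7a (0.91) and Nkiras2 (0.89). Cyp2a1 was most like Upf2, a nonsense-mediated decay factor (0.92), Bckdhb (0.86) and Taf5l1 (0.84). Cyp2d3 was most like Polr1a (0.88), Scnm1 (0.86) and Bub3 (0.85). Cyp2d4 was most like Mettl13 (0.87), Dgat1 (0.86) and Atp6v0d1 (0.83), Cyp2j3 most like Akap11 (0.88), Tpr (0.87) and Dynlt2b (0.86), and Cyp2j4 most like Dapk2 (0.85), Bud13 (0.80) and Slc6a8 (0.78). None of these genes was itself called.

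Probes like Cyp2d5 by the same measure included Serhl2 (0.93), which encodes a hydrolase, and Acsm5 (0.80). The Serhl2 probe lies on the same chromosome as the Cyp2d cluster, at chr7:121146515-121146574 of rn4. Serhl2 had -0.39, 0.49 and 1.54 in fipronil rats, against -0.55, 0.06 and 1.62 in vehicle rats. The groups overlapped over nearly their whole range, and Serhl2 was not called (limma adjusted p = 0.862).

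Other genes of the same pathways were taken from lists, with 1 probe, the brightest, for each gene. Of 28 other Cyp2 genes, 16 were tested, 2 rose and 0 fell, with a median difference of 0.08. Those 2 were Cyp2b15, 0.65 ± 0.95 with fipronil and -2.19 ± 0.89 with vehicle (7.15-fold, limma adjusted p = 0.00386), and Cyp2c22, 2.98 ± 0.17 with fipronil and 2.36 ± 0.29 with vehicle (1.54-fold, limma adjusted p = 0.0232). The Cyp2b genes are near copies and the Cyp2b15 probe lists several transcripts, so which of them it read is uncertain. At an unadjusted p under 0.05, 4 of the 16 were higher and 3 were lower. The 3 lower, Cyp2c6v1, Cyp2c7 and Cyp2c12, were saturated on 12, 15 and 14 of the 15 arrays. Over all probes tested, 0.533% were called higher and 0.288% lower. At an unadjusted p under 0.05, 17.2% of all probes tested differed in either direction and 6.52% were higher. Of 7 genes tied to electron transfer or haem of P450s, 1 rose narrowly and 0 fell. That was the haem-binding partner Pgrmc1, 7.43 ± 0.16 with fipronil and 7.07 ± 0.10 with vehicle (1.29-fold, limma adjusted p = 0.0490). At an unadjusted p under 0.05, 2 of the 7 were higher and 1 was lower. Alas1 and Cyb5a were saturated on 14 and 7 arrays.

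Among 11 tested enzymes of arachidonic acid and its epoxides, 1 rose and 1 fell, with a median of 0.10. At an unadjusted p under 0.05, 3 of the 11 were higher and 4 were lower. Over all probes tested, 17.2% differed at that level in either direction. Ephx1, the microsomal epoxide hydrolase, rose 2.15-fold (6.10 ± 0.45 with fipronil, 5.00 ± 0.35 with vehicle, limma adjusted p = 0.0129). Cyp4a3, a fatty acid omega-hydroxylase, fell by 0.72 on the log2 scale (5.81 ± 0.37 with fipronil, 6.53 ± 0.27 with vehicle, limma adjusted p = 0.0448). The others lower at an unadjusted p under 0.05 were Cyp4a1 (-0.69, limma adjusted p = 0.0772), Cyp4a2 (-0.48, adjusted p = 0.135) and Cyp4f1 (-0.27, adjusted p = 0.207). Cyp4f1 was saturated on 13 arrays. Cyp2c23 and Ltc4s were the others higher at that level. None of 22 tested transcription factors of hepatic P450 genes was called by limma (4 at an unadjusted p under 0.05), with a median of -0.02, and the smallest p was that of Nr1h4, the bile acid receptor (difference 0.46, limma adjusted p = 0.152).

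Sex-dependent and zonal liver genes were also read, since Cyp2a1 and Cyp2a2 differ by sex and Cyp2e1 by position in the lobule. Of 11 sex-dependent, 12 pericentral and 10 periportal genes tested, none was called by limma, and the medians were -0.27, -0.20 and -0.10. At an unadjusted p under 0.05, 1 sex-dependent gene was higher with fipronil and 6 were lower, 1 pericentral gene was higher and 2 were lower, and 0 periportal genes were higher and 2 were lower. The sex-dependent median is in part one of capped spots: A1bg, Cyp2c12, Cyp2c7 and Sult2a1 were saturated on 12, 14, 15 and 15 of the 15 arrays. The 6 lower sex-dependent genes included the capped Cyp2c12, Cyp2c7 and Sult2a1. Among the others of the 6, Hsd17b2 (-0.54, limma adjusted p = 0.0788), Prlr (-0.69, adjusted p = 0.252) and Ghr (-0.31, adjusted p = 0.164) were saturated on no array. Of the 2 lower periportal genes, Arg1 was saturated on 15 of the 15 arrays. Over all probes tested, 17.2% differed at an unadjusted p under 0.05 in either direction and 6.52% were higher. The smallest p of the sex-dependent list belonged to the male form Cyp3a2 (adjusted p = 0.0541), which was above background in 7 of 8 rats given fipronil and 1 of 7 given vehicle. It passed the filter through the fipronil group, and its vehicle level is background, so no size is given. The smallest p of the zonal lists belonged to Lect2 (-0.38, adjusted p = 0.117) and to the histidine-degrading Hal (-0.50, adjusted p = 0.0892). In whole liver, fewer cells of a type and less RNA per cell cannot be told apart. All 7 hepatocyte markers were tested and none was called (median -0.31). At an unadjusted p under 0.05, 5 of them were lower. All 7 were saturated on 11 to 15 of the 15 arrays, so these are values of capped spots. Of 5 endothelial markers 4 were tested, with a median of 0.35 and 0 called (3 higher at an unadjusted p under 0.05). Cdh5 went the other way (-0.08), and Pecam1 did not pass the filter on low signal. The summed level of the 5, in multiples of the array's 75th percentile, was 67.3 to 128 with fipronil and 56.2 to 77.2 with vehicle. Most of that sum was Kdr, with a mean signal of 6.28 with fipronil and 5.99 with vehicle (limma adjusted p = 0.291). Lyve1, the next, had 2.23 with fipronil and 1.71 with vehicle. The part of a shift between cell types in the P450 values was not tested. Of 5 T, B and NK cell markers, 3 were above background on no array. The Kupffer cell, stellate cell, cholangiocyte, neutrophil and erythroid lists had no call, and at an unadjusted p under 0.05 Epcam of the cholangiocyte list was the one gene higher among them.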

How the data were processed

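Liver RNA (RNA integrity number above 8.7 per the labels) was hybridised to 1 single-colour Agilent array per rat. The deposited array files hold spot intensity values from Agilent Feature Extraction 9.5.3.1 with probe positions on rn4, per the file headers; the processed intensity is background subtracted, and per the file headers no normalization between arrays was applied. The deposited 0 or 1 flags mark saturation, outliers and signal well above background. The deposited log2 value table (22244 probes) ranked probes as the median spot intensity did (Spearman at least 0.99999) with column medians of 7.651 to 7.661, and was read as quantile normalized median intensity; how its probes were chosen is unknown. The submitters' processing notes name limma and Feature Extraction 9.5.

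Outlier spots were left out, spots of a probe averaged, log2 taken and the array's 75th percentile subtracted. Probes well above background on at least 7 arrays and missing on at most 3 were tested two-sided with limma 3.58.1 (functions lmFit, eBayes; group alone) in R 4.3.3. All 191 calls among 23259 probes made up 0.821%. Each probe stayed a feature of its own. SD is the spread over rats and SE the error of the fitted difference. The number of arrays limits the precision.

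Names came for 10768 of 41012 probes from the main accession, for 286 from a further one, for 4998 from the symbol and for 3340 from a synonym, through a RefSeq table of GRCr8, used for names. All member genes are named; from the lists, every called gene and otherwise the smallest p; for likeness, the 3 highest correlations, of which 1 is not reported here. Members and lists were chosen with earlier results of these data known. Probe sequences and proteins were not at hand, so a planned match of probes to proteins was not run. Replicate numbers were shared by 7 pairs of rats, whose deviations correlated at -0.04 to 0.37, 3 of them above 0.1, so the numbers were not taken to pair rats. Alternatives covered background correction, scaling, filters, flags, blocks, array weights and leaving out each rat or slide. Promoters were aligned with Biopython 1.88.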

Additional observations from a re-analysis of the deposited data

Results flagged for a closer look

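Of 22 groups of rats examined (11 probes, fipronil and vehicle), 2 held a rat far from the others, and chance flags about 1 in 20 groups. Both were the lowest value of fipronil rat 2. Its Cyp2a2 signal was -4.71, where the nearest fipronil rat had -3.44, and its Cyp2e1 signal was 7.91, where the nearest had 8.19. That rat's array was the brightest, with a 75th percentile of intensity of 269.5.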

How the results depend on the processing

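The Cyp2d2 difference was positive under all 33 alternatives (0.38 to 0.79) and called under 13 of them, with adjusted p-values of 0.0079 to 0.392. The number of the 11 probes called higher was 2 with arrays centred on their median, with array weights and with no scaling (added after seeing the data), and 0 with no filter on dim probes, with slide as a block (Cyp2d2 0.50, adjusted p = 0.0524), with brightness of the array as covariate and without slide 2, 3 or 4; it was 0 to 2 with single rats left out. The number called lower was 0 throughout. The median difference of the 11 probes was 0.22 to 0.63, and 0.25 to 0.43 with single rats left out. No scaling moved the median of all probes to 0.29 and centring on array medians to 0.05.

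Probes called among all tested numbered 191, and 103 to 305 with single rats left out, lowest without vehicle rat 2 and highest without vehicle rat 3. The number was 90 with no filter on dim probes, 42 with array brightness as a covariate, 704 with no scaling, and 38, 125 and 43 without slide 1, 2 and 4. With the replicate block, 98 probes and 0 of the 11 were called, and 5 of 14 rats correlated best with the rat of their own number.

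Signs turned for Cyp2e1 with normexp (0.10), median intensity (0.12), the authors' table (0.17), array medians (0.0267), brightness (0.136), no scaling (0.27), without slide 4 (0.00213) and, over single rats, between -0.0769 and 0.00917; leaving out saturated spots gave no value. Cyp2j4 gave 0.0359 with array medians, 0.0324 without slide 3, 0.28 with no scaling and -0.0798 to 0.0456 over single rats. Cyp2a2 gave -0.15 without slide 2 and -0.047 to 0.52 over single rats. Cyp2d5 gave -0.0446 with brightness, and the second Cyp2d4 probe 0.13 with no scaling. The cause was not tested. The match of probes to proteins was not run. Saturation limits Cyp2e1 and background limits Cyp2a2.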
